A study of Mus musculus with 6 samples.

Results

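The imprinted miR-379 to miR-377 cluster is a run of 30 miRNA hairpins on mouse chromosome 12, and its mature miRNAs were followed through 6 small RNA libraries of embryonic stem cells. Members were all -5p, -3p or armless entries of miR-379, miR-411, miR-299a, miR-380, miR-1197, miR-323, miR-758, miR-329, miR-494, miR-679, miR-666, miR-543, miR-495, miR-667, miR-376a, miR-376b, miR-376c, miR-654, miR-300, miR-381, miR-487b, miR-539, miR-544, miR-382, miR-134, miR-668, miR-485, miR-154, miR-496a and miR-377 that had at least 1 uniquely matched read over the 6 libraries. These names matched 60 entries, and 56 of them had a read, out of 1198 entries with a read in the whole series. The 4 without a read were miR-376c-5p, miR-654-5p, miR-539-3p and miR-544-5p. Just inside the limit were miR-758-5p with 1 read, miR-654-3p with 2, miR-544-3p with 3 and miR-1197-5p with 4. Each of the 30 hairpins had at least 1 member. Of the 56 members, 37 from 26 hairpins passed the minimum used for ratios between libraries, a mean count of at least 50, and 19 did not. The means nearest this limit were those of miR-376b-5p at 52.7 and miR-382-3p at 42.5. This mean is of unscaled counts, so it leans on the deepest library, WT with RA.

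The cluster lies in the Dlk1-Dio3 domain, an imprinted region whose noncoding RNAs and miRNAs are made from the maternal chromosome. Its hairpins are cut from long transcripts that run in the same direction as Meg3 and continue through Mirg, and each hairpin can give a mature miRNA from its 5′ arm (5p) and from its 3′ arm (3p). A mature miRNA guides Argonaute to messenger RNAs, mostly by pairing of its seed, bases 2 to 8. The locus is known for its expression in stem cells, embryo and brain, where members such as miR-134, miR-329 and miR-485 have been studied in dendrites and synapses of neurons.

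The cells were 129/Ola mouse embryonic stem cells, a line derived from the inner cell mass, grown on gelatin with fetal calf serum and leukaemia inhibitory factor, which holds them undifferentiated. Each of the 6 groups had 1 library: untreated wild type (WT), untreated Wt1 knockout (Wt1 KO), Wt1 KO given doxycycline (dox, 1 µg/ml) for 12 h or for 24 h to induce Wt1, and WT and Wt1 KO with retinoic acid (RA, written as 1 µm in the labels and read here as 1 µM). Wt1 encodes a zinc finger transcription factor of kidney and gonad development, dox switches on the inducible gene, and RA is a vitamin A derivative that makes stem cells differentiate. All groups share the 129/Ola background, and the 4 Wt1 KO groups share the knockout. The knockout's design, whether a line is 1 clone, whether the untreated Wt1 KO cells carry the inducible gene, and how long RA was given are not stated in the sources used here. Small RNA libraries do not read the Wt1 mRNA, so neither knockout nor induction was checked. With 1 library per group there is no spread between replicates and no test of a difference between groups. Every interval given covers counting error only, and reads without molecular identifiers can be PCR copies of 1 molecule.

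The libraries held between 83626 uniquely matched reads (Wt1 KO with RA) and 6106104 (WT with RA), a 73.0-fold range. In Wt1 KO with RA, 18 of the 37 members that passed the minimum had fewer than 20 reads, and their median count was 20, against 195 in untreated WT and 1505 in WT with RA. A count of 0 there allows up to 27.8 normalised CPM (read counts scaled for library size and composition), against 0.448 in WT with RA. The stem cell miRNAs of the miR-290 family took between 16.0% and 23.4% of the reads of the 4 libraries without RA, 0.751% of WT with RA and 9.40% of Wt1 KO with RA, with 14 or 15 of 16 entries read. HOX cluster miRNAs, which RA is known to induce, held 10.9% of WT with RA, 2.41% of Wt1 KO with RA and no more than 0.0461% of the other libraries. Fibroblast and mesenchyme markers held 6.38% of untreated WT, 1.32% of untreated Wt1 KO, 2.93% and 2.65% of the dox libraries at 12 h and 24 h, 3.86% of WT with RA and 3.76% of Wt1 KO with RA, with 12 to 19 of 19 entries read. Muscle, neural, endoderm and blood or endothelium lists held at most 0.0464%, 0.0813%, 0.0300% and 0.402% of any library, with 1 or 2 of 9, 7 to 11 of 14, 2 to 4 of 7 and 5 to 8 of 11 entries read. The muscle miRNAs miR-1a-3p and miR-206-3p and the blood miRNAs miR-223-3p and miR-451a were at 0 in every library. Entries that overlap rRNA or tRNA held between 0.0393% and 0.104% in 5 libraries and 0.313% in Wt1 KO with RA. The part of these lists and of depth in the results was not tested.

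In the GRCm38 annotation the cluster spans chr12:109709060-109740577 on the plus strand, 31.5 kb from the start of the miR-379 hairpin to the end of the miR-377 hairpin. Of its hairpins, 23 lie before the annotated start of Mirg (chr12:109729764-109749460), 3 lie in exons of Mirg (miR-134, miR-485 and miR-377), 2 partly in exons (miR-382 and miR-668) and 2 in introns (miR-154 and miR-496a). The deposited mature sequences were equal to RefSeq's (GRCm38.p6) for the 56 entries that RefSeq holds. The hairpins of miR-379 and miR-411 stand first and second in the cluster and carry closely similar 3p arms, yet differed widely in level, and the leading arm of miR-329 differed with RA. Their RefSeq hairpins are shown 5′ to 3′ with the 5p and 3p arms in capitals.
miR-379 hairpin: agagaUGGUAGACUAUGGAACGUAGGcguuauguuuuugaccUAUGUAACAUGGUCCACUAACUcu
miR-411 hairpin: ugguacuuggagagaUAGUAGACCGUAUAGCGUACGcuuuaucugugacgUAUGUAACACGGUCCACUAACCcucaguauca
miR-329 hairpin: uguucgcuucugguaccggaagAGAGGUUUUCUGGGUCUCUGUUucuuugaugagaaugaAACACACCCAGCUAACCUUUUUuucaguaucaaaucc

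The mature sequences on which the results turn are shown with the seed in capitals. They are both arms of miR-379 and miR-411, the similar pair miR-300-3p and miR-381-3p, the abundant miR-134-5p, and the members that stood out with RA.
miR-379-5p: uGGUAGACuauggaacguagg
miR-411-5p: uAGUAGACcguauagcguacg
miR-379-3p: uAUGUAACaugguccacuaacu
miR-411-3p: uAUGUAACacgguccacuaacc
miR-300-3p: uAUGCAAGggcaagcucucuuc
miR-381-3p: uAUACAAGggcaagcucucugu
miR-134-5p: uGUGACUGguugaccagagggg
miR-380-3p: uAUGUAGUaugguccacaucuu
miR-299a-5p: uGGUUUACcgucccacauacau
miR-376b-3p: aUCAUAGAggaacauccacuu
miR-494-3p: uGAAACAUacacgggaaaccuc
miR-668-3p: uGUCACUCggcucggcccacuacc

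Positions below are counted from 1 at the 5′ end, with the base of the first-named miRNA first. The 3p arms of miR-379 and miR-411 share the seed AUGUAAC and are 90.9% identical, with U10C and U22C. The 5p arms differ in the seed by G2A and farther along by U9C, A10G, G12A, G13U, A15G and G20C, which leaves 66.7% identity. miR-300-3p and miR-381-3p differ by G4A in the seed and by U21G and C22U, and miR-380-3p differs from miR-379-3p in the seed by A7G and C8U. How many mismatches the authors allowed is not stated, so how reads of such similar pairs were split is uncertain. The 56 members had 54 distinct seeds, and 2 of these were shared by a pair of members. The other shared seed was GGUUGAC of miR-1197-5p and miR-758-5p, which had 4 reads and 1 read. Members beginning with U numbered 22 of 56 and held between 80.2% and 89.6% of the cluster's reads in each library. Most of this share came from miR-411-5p, which alone held between 49.7% and 61.1%.

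The cluster as a whole took a larger share of the reads in both libraries with RA than in the 4 without. Its share was 2.64% and 4.19% in WT without and with RA, 2.87% and 6.50% in Wt1 KO without and with RA, and 3.20% and 3.14% after 12 h and 24 h of dox. The 95% Wilson intervals of the RA libraries, 4.17% to 4.20% and 6.34% to 6.67%, lay above those of all others. On this scale the share was 1.58-fold higher with RA in WT and 2.26-fold higher with RA in Wt1 KO. After scaling for composition the log2 ratio was 0.56 (95% interval 0.55 to 0.58) in WT and 0.48 (0.44 to 0.52) in Wt1 KO. Under the 6 scalings it ran from 0.42 to 0.88 in WT and from 0.13 to 1.58 in Wt1 KO. Without miR-411-5p the log2 ratios were 0.53 and 0.11, and the second ran from -0.24 to 1.21 under the 6 scalings, so its sign is not fixed. The share of the other members was 2.53% there, against 1.45% in untreated Wt1 KO. A larger share with RA was not particular to the cluster. The Meg3-proximal and anti-Rtl1 part of the locus held 17.6% and 24.2% in WT without and with RA, and 19.5% and 33.5% in Wt1 KO. The distal part held 3.84% and 6.21% in WT and 4.14% and 4.53% in Wt1 KO, but 6.04% after 24 h of dox. In bulk RNA, more cells that make a miRNA and more of it per cell cannot be told apart.

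**Figure D1:**
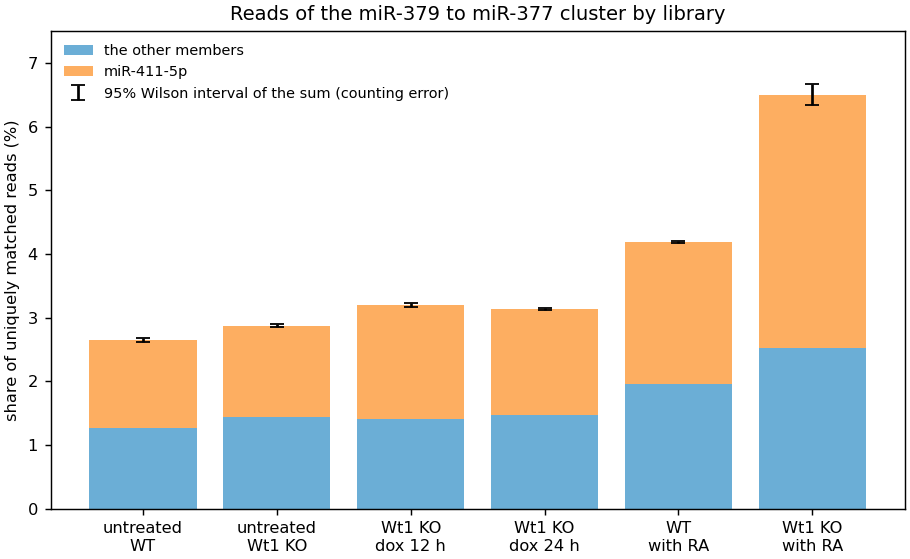
Share of uniquely matched reads (%, y axis) that fell to the cluster in each of the 6 libraries, split into miR-411-5p (upper bar part) and the other members (lower bar part), with the 95% Wilson interval of the sum. The sums run from 2.64% in untreated WT to 6.50% in Wt1 KO with RA, and miR-411-5p is about as tall as all other members together or taller.

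A single miRNA, miR-411-5p, supplied about as many reads as the other 55 members together. It held 52.0% and 53.2% of the cluster's reads in WT without and with RA, 49.7% and 61.1% in Wt1 KO without and with RA, and 55.9% and 53.1% after 12 h and 24 h of dox. Its normalised CPM was 13435 and 20328 in WT without and with RA, 17899 and 30757 in Wt1 KO without and with RA, and 19407 and 17752 after 12 h and 24 h of dox. The level was lowest in untreated WT and highest in Wt1 KO with RA, and the log2 ratio was 0.41 (95% interval 0.38 to 0.44) for untreated Wt1 KO against WT, 0.60 (95% interval 0.57 to 0.62) for RA in WT and 0.78 (95% interval 0.73 to 0.83) for RA in Wt1 KO. None of these reached 1 under the main scaling. The RA ratio in Wt1 KO passed 1 when counts were scaled by the total, without the stem cell clusters, or without the miRNAs of the locus. The neighbouring hairpin gave far fewer reads. Reads of miR-379-5p numbered 109 and 1637 in WT without and with RA, 298 and 38 in Wt1 KO without and with RA, and 153 and 893 after 12 h and 24 h of dox. Those of miR-411-5p numbered 14636 and 136090 in WT without and with RA, 25256 and 3323 in Wt1 KO without and with RA, and 21966 and 60393 after 12 h and 24 h of dox.

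The next members by mean level were miR-300-3p, miR-134-5p, miR-381-3p and miR-667-3p. With miR-411-5p, the 5 most abundant members of a library held between 73.7% and 77.2% of the cluster's reads in 5 libraries and 84.5% in Wt1 KO with RA. In dox 12 h and in Wt1 KO with RA, miR-323-3p took the place of miR-667-3p among these 5. The normalised CPM of miR-300-3p was 1640.3 and 2075 in WT without and with RA, 2533 and 3859.7 in Wt1 KO without and with RA, and 2445 and 2324 after 12 h and 24 h of dox, and its near relative miR-381-3p had 1534 and 2288 in WT without and with RA, 1753 and 3582 in Wt1 KO without and with RA, and 2468 and 1567 after 12 h and 24 h of dox. Both were highest in Wt1 KO with RA, and miR-381-3p exceeded miR-300-3p in WT with RA and, by 2794 against 2767 reads, in dox 12 h. miR-134-5p, a brain miRNA that limits dendritic spine size through Limk1, had 1862 and 2688 in WT without and with RA, 2972 and 3165 in Wt1 KO without and with RA, and 1389 and 1842 after 12 h and 24 h of dox. It was lowest in dox 12 h. miR-667-3p had 1230.0 and 2048 in WT without and with RA, 1509.5 and 1018 in Wt1 KO without and with RA, and 1088 and 1156 after 12 h and 24 h of dox, which is highest in WT with RA. The plot of member levels shows how far the 37 members spread.

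**Figure D2:**
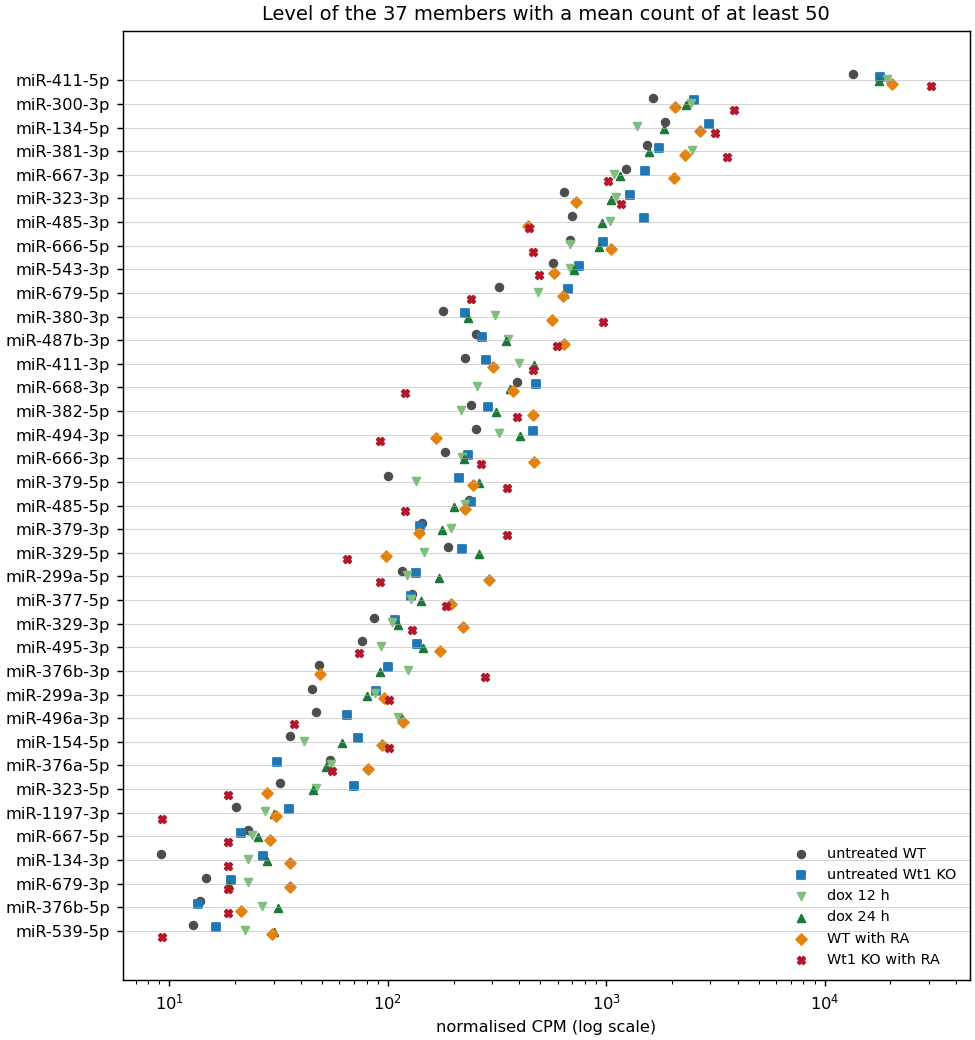
Normalised CPM (log scale, x axis) of the 37 members with a mean count of at least 50, ordered by mean level from top to bottom, with 1 symbol per library. miR-411-5p stands alone at the right, between 13435 in untreated WT and 30757 in Wt1 KO with RA, and the library with the lowest depth, Wt1 KO with RA, scatters most among the low members.

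Without RA, 7 cluster miRNAs were at least 2-fold higher in Wt1 KO than in WT and none was 2-fold lower. They were counted among the 37 members by the size rule, which asks for a log2 ratio of 1 or more, or of -1 or less, whose interval does not reach 0. Over all 351 miRNAs with the same minimum, 12.3% were higher and 15.4% lower. The members' median log2 ratio was 0.37, against 0.11 over all miRNAs. In the rest of the locus it was 0.52 over 20 Meg3-proximal and anti-Rtl1 miRNAs and 0.24 over 8 distal ones. Scaling by the library total lowered the members' median to 0.02 and that of all miRNAs to -0.24, and the counts became 1 higher and 1 lower, so the size of the ratios rests on the scaling. Over all 56 members without the minimum, 9 were higher and 0 lower, beside 5.51% and 6.76% of the 1198 entries with a read.

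The 7 were miR-134-3p, miR-323-5p, miR-485-3p, miR-379-5p, miR-679-5p, miR-376b-3p and miR-154-5p. miR-485-3p had 699 normalised CPM in WT and 1495 in Wt1 KO, a log2 ratio of 1.10 (95% interval 0.98 to 1.22). miR-379-5p had 100.1 and 211, a log2 ratio of 1.07 (95% interval 0.76 to 1.41), whereas its 3p arm had 143.2 and 141. miR-679-5p had 322 and 668.3, a log2 ratio of 1.05 (95% interval 0.87 to 1.23). The low member miR-134-3p, with 10 and 38 reads, had the largest ratio, 1.51 (95% interval 0.52 to 2.72), and was the 1 member past the rule under all 6 scalings. At the other end was miR-376a-5p with -0.79. The summed share of fibroblast and mesenchyme markers, lower in untreated Wt1 KO than in WT, differs between the same 2 libraries. The list did not move as a whole. The log2 ratio was -2.98 for miR-21a-5p and -1.92 for miR-22-3p, but 1.08 for miR-143-3p. It was 0.68 for the joint entry of miR-199a-3p and miR-199b-3p. The part of these markers was not tested. Across the 37 members the log2 ratio ran against the length of the mature miRNA (Pearson r = -0.48, Spearman rho = -0.51), a description over miRNAs that share both libraries. This was the strongest coefficient with length, and in the other comparisons r with length ran from -0.26 to 0.05. It was not computed for miRNAs outside the cluster.

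With RA in WT, 13 cluster miRNAs were at least 2-fold higher and none was 2-fold lower. Among the 37 members, 13 were higher and 0 lower in WT with RA than in untreated WT, where 22.5% of all 351 miRNAs were higher and 24.2% lower. The members' median log2 ratio was 0.60, against 0.14 over all miRNAs. Of the 13, 12 passed the size rule under all 6 scalings, and the exception was miR-299a-3p. The minimum leans on WT with RA, so it more readily admits members that are high in that library. Among these 12, miR-134-3p, miR-539-5p and miR-679-3p reached the mean count of 50 only through their reads in WT with RA. Passing under all scalings does not remove this limit. Over all 56 members, 15 were higher and 1 lower, beside 10% and 13.1% of the 1198 entries. The untreated WT library also enters the comparison above, so the ratios of both comparisons share its counting error.

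miR-380-3p had the ratio farthest from 0 once its interval is counted. Its normalised CPM was 179 and 564 in WT without and with RA, 226 and 972 in Wt1 KO without and with RA, and 309 and 234 after 12 h and 24 h of dox, so both libraries with RA stood above the 4 without. The log2 ratio was 1.66 (95% interval 1.45 to 1.87). miR-487b-3p had 254 and 640.1 in WT without and with RA, 271 and 592 in Wt1 KO without and with RA, and 354 and 348 after 12 h and 24 h of dox, again highest in both RA libraries, with a log2 ratio of 1.33 (95% interval 1.16 to 1.51) in WT. miR-299a-5p had 117 and 290.4 in WT without and with RA, 133.9 and 92.6 in Wt1 KO without and with RA, and 123 and 172 after 12 h and 24 h of dox. Here WT with RA was the highest library and Wt1 KO with RA, with 10 reads, the lowest, and the log2 ratio in WT was 1.32 (95% interval 1.06 to 1.59). Another 82 reads of WT with RA and 9 of untreated WT matched miR-299a-5p and other entries and were not counted. miR-666-3p had 184 in untreated WT and 469 in WT with RA, a log2 ratio of 1.35 (95% interval 1.15 to 1.57). miR-379-5p had a log2 ratio of 1.29 (95% interval 1.01 to 1.58), and the neuronal miR-329-3p one of 1.36 (95% interval 1.06 to 1.68). The others past the rule were miR-134-3p, miR-154-5p, miR-495-3p, miR-496a-3p, miR-539-5p, miR-679-3p and miR-299a-3p, with log2 ratios between 1.09 and 1.94.

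Among the abundant members the RA ratios in WT were smaller. The log2 ratio was 0.60 for miR-411-5p, 0.34 for miR-300-3p, 0.58 for miR-381-3p, 0.53 for miR-134-5p and 0.74 for miR-667-3p. 3 members had an interval wholly below 0. These were miR-329-5p with -0.94 (95% interval -1.17 to -0.71), miR-485-3p with -0.68 (95% interval -0.79 to -0.56) and miR-494-3p with -0.61 (95% interval -0.81 to -0.42). miR-329-5p passed the rule as lower when scaled by the median of ratios or without the stem cell clusters. In the same comparison, 7 of 20 miRNAs of the Meg3-proximal and anti-Rtl1 part of the locus were higher and 1 lower (median 0.77), and 5 of 8 distal miRNAs were higher and 0 lower (median 1.26). The stem cell and HOX shares given above differ between the same libraries.

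With RA in Wt1 KO, the shares of members past the size rule were below those of all miRNAs under the main scaling. Among the 37, 5 were higher (13.5%) and 7 lower (18.9%) in Wt1 KO with RA than in untreated Wt1 KO, where 23.4% of all miRNAs were higher and 23.1% lower. The members' median log2 ratio was -0.05, against -0.11 over all miRNAs. Under other scalings the counts ran from 2 higher and 9 lower (TMM over every entry with a read) to 17 higher and 1 lower (without the miRNAs of the locus), and the median ran from -0.39 to 1.03, so its sign is not fixed. miR-380-3p and miR-376b-3p were higher and miR-494-3p was lower under all 6 scalings. When the 18 members with under 20 reads in this library were left out, 5 were higher and 3 lower. That filter is on a count within the ratio, so it takes out lower members more readily than higher ones. Over all 56 members, 7 were higher and 7 lower, beside 8.93% and 6.84% of the 1198 entries.

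miR-380-3p had 226 normalised CPM in untreated Wt1 KO and 972 in Wt1 KO with RA (319 and 105 reads), a log2 ratio of 2.10 (95% interval 1.77 to 2.43). It passed the rule in WT as well, with 1.66, and miR-487b-3p also passed in both genotypes, with 1.33 in WT and 1.12 (95% interval 0.72 to 1.51) in Wt1 KO. miR-376b-3p, of a hairpin group known for A-to-I editing, had 48.7 and 49 in WT without and with RA, 101 and 278 in Wt1 KO without and with RA, and 123.7 and 92 after 12 h and 24 h of dox. The 30 reads in Wt1 KO with RA made it the highest library, and the log2 ratio was 1.46 (95% interval 0.84 to 2.04). miR-379-3p had 143.2 and 139 in WT without and with RA, 141 and 352 in Wt1 KO without and with RA, and 195 and 178 after 12 h and 24 h of dox, a log2 ratio of 1.31 (95% interval 0.78 to 1.82) in Wt1 KO, while the 2 WT libraries lay close together. miR-381-3p was the most abundant of the 5, with 1.03 (95% interval 0.87 to 1.19).

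Of the 7 lower members, miR-494-3p had read counts of 276 and 1108 in WT without and with RA, 649 and 10 in Wt1 KO without and with RA, and 364 and 1372 after 12 h and 24 h of dox. This is 459.9 normalised CPM in untreated Wt1 KO and 92.6 in Wt1 KO with RA. Its log2 ratio was -2.30 (95% interval -3.38 to -1.42). miR-668-3p had 391 and 376.1 in WT without and with RA, 477 and 120.3 in Wt1 KO without and with RA, and 256 and 363 after 12 h and 24 h of dox, with Wt1 KO with RA the lowest library at 13 reads and a log2 ratio of -1.98 (95% interval -2.90 to -1.20). miR-485-3p had 699 and 438 in WT without and with RA, 1495 and 444 in Wt1 KO without and with RA, and 1039.9 and 956 after 12 h and 24 h of dox, about as low in both libraries with RA, and a log2 ratio of -1.75 (95% interval -2.19 to -1.34) in Wt1 KO. The log2 ratio was -1.47 (95% interval -2.10 to -0.91) for miR-679-5p, -1.74 (95% interval -3.08 to -0.69) for miR-329-5p, -1.06 (95% interval -1.50 to -0.66) for miR-666-5p and -1.89 (95% interval -4.99 to -0.03) for miR-323-5p. These rest on 26, 7, 50 and 2 reads in Wt1 KO with RA. The log2 ratio of miR-666-5p was 0.038 when scaled without the miRNAs of the locus. Entries that overlap rRNA or tRNA had their highest share in this library, and their part was not tested.

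**Figure D3:**
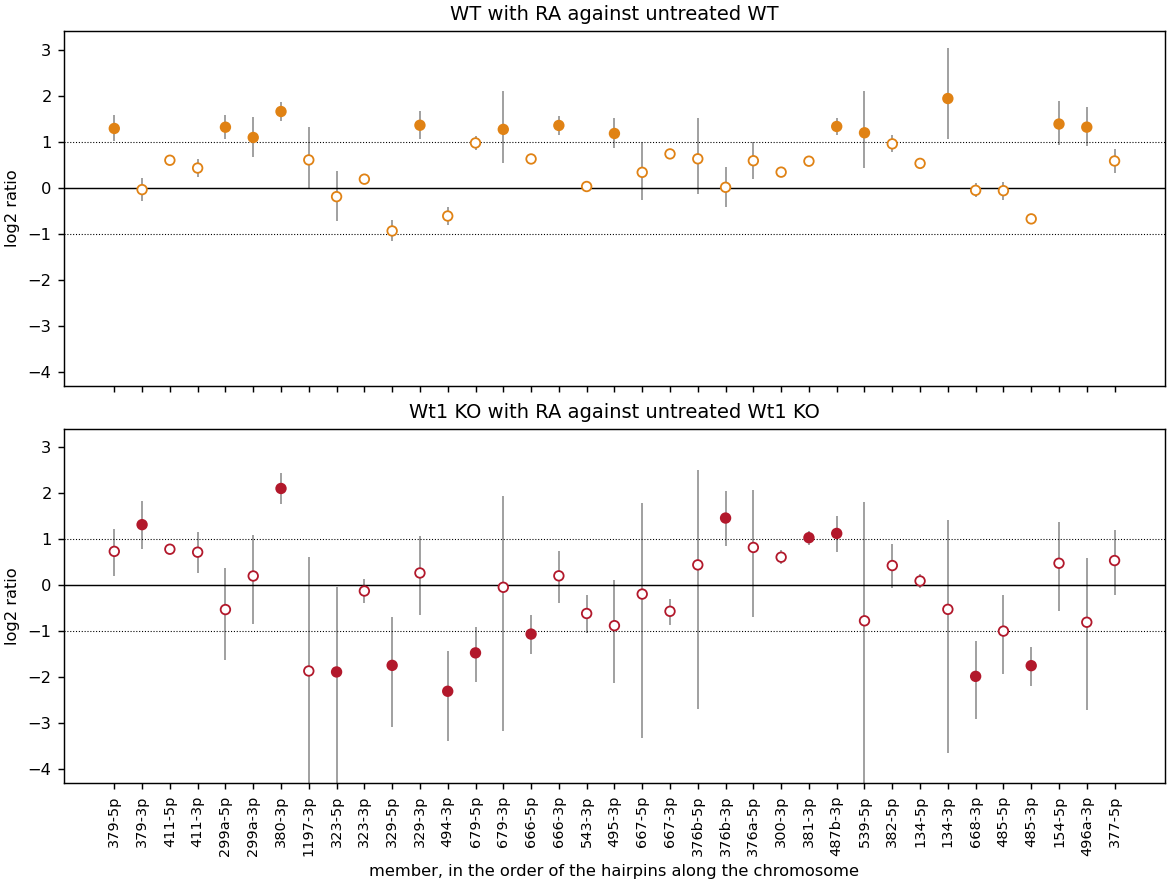
Log2 ratio (y axis) of RA against untreated in WT (top) and Wt1 KO (bottom) for the 37 members, in the order of their hairpins along the chromosome (x axis). Filled points pass the size rule, bars are 95% counting intervals and some in Wt1 KO run beyond the axis, and dotted lines mark ratios of 1 and -1. In WT 13 filled points lie above and none below, and in Wt1 KO 5 lie above and 7 below.

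Between the genotypes with RA, the reads of the cluster summed to a higher level in Wt1 KO under 5 of the 6 scalings. The log2 ratio of the sum to WT was 0.40 (95% interval 0.36 to 0.44), and 0.13 (95% interval 0.07 to 0.19) without miR-411-5p. With TMM over every entry with a read these values were -0.02 and -0.29, so neither sign is fixed. Among the 37, 2 were higher (5.41%) and 7 lower (18.9%) in Wt1 KO with RA than in WT with RA, with 17.9% of all miRNAs higher and 19.4% lower. The share of lower members was thus near that of all miRNAs. The minimum leans on WT with RA, so it more readily admits members that come out lower in this comparison. The members' median log2 ratio was -0.55, against -0.07 over all miRNAs. Under the 6 scalings the counts ran from 1 higher and 11 lower to 8 higher and 2 lower. miR-376b-3p was higher and miR-299a-5p and miR-668-3p were lower under all of them. The log2 ratio was 2.50 (95% interval 1.91 to 3.04) for miR-376b-3p, on 328 and 30 reads in WT and Wt1 KO. It was 1.34 (95% interval 0.83 to 1.80) for miR-379-3p. The lower members were miR-299a-5p with -1.65 (95% interval -2.71 to -0.77), miR-496a-3p with -1.65 (95% interval -3.54 to -0.30), miR-668-3p with -1.64 (95% interval -2.56 to -0.87), miR-679-5p with -1.39 (95% interval -2.01 to -0.84), miR-495-3p with -1.22, miR-666-5p with -1.19 and miR-667-3p with -1.01. Leaving out members with under 20 reads in Wt1 KO with RA left 3 of these 7, but this filter too is on a count within the ratio. Over all 56 members, 3 were higher and 7 lower, beside 8.6% and 5.76% of the 1198 entries. The median over the 20 Meg3-proximal and anti-Rtl1 miRNAs was -0.09 and over the 8 distal ones -0.75.

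The RA response itself was compared between the genotypes as the log2 ratio in Wt1 KO minus that in WT. This difference was at least 1 with an interval above 0 for 2 members and at most -1 with an interval below 0 for 13, where 21.7% and 18.5% of all 351 miRNAs were. Of these 13, miR-134-3p and miR-1197-3p reached the mean count of 50 only through their reads in WT with RA. The minimum leans on that library, and more reads there lower this difference. Over the 37 members the median difference was -0.89, against 0.00 over all miRNAs. Of 8 distal miRNAs of the locus, 0 were higher and 4 lower by the same rule, with a median of -1.22. Of 20 Meg3-proximal and anti-Rtl1 miRNAs, 2 were higher and 3 lower, with a median of -0.29. Under the 6 scalings the counts of the 37 members ran from 1 and 19 to 6 and 4. The same 4 libraries make up the 2 responses, and all differences share the shallow Wt1 KO library with RA. Without members of under 20 reads in that library, 5 of the 13 remained, though a filter on that count favours the loss of lower members. Over all 56 members the counts were 2 and 13, beside 9.43% and 6.84% of the 1198 entries.

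miR-376b-3p had the largest positive difference, 1.45 (95% interval 0.75 to 2.15), followed by miR-379-3p with 1.36 (95% interval 0.80 to 1.91). Neither had a ratio away from 0 with RA in WT. miR-679-5p had 322 and 633 in WT without and with RA, 668.3 and 241 in Wt1 KO without and with RA, and 486.8 and 643 after 12 h and 24 h of dox, so RA went with more in WT and less in Wt1 KO, and the difference was -2.44 (95% interval -3.02 to -1.87). miR-495-3p had 76.2 and 173 in WT without and with RA, 136.8 and 74 in Wt1 KO without and with RA, and 92.8 and 145.2 after 12 h and 24 h of dox, with log2 ratios of 1.18 in WT and -0.88 (95% interval -2.12 to 0.12) in Wt1 KO and a difference of -2.06 (95% interval -3.10 to -1.02), on 8 reads in Wt1 KO with RA. The difference was -1.85 (95% interval -2.78 to -0.91) for miR-299a-5p and -1.92 (95% interval -2.72 to -1.13) for miR-668-3p. These 4 lower members and miR-376b-3p passed the rule under all 6 scalings. miR-667-3p and miR-666-5p had -1.30 (95% interval -1.59 to -1.02) and -1.69 (95% interval -2.11 to -1.27). The others below -1 were miR-1197-3p, miR-329-3p, miR-494-3p, miR-666-3p, miR-134-3p, miR-485-3p and miR-496a-3p.

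After dox, the cluster stayed close to untreated Wt1 KO. At 12 h, 0 members were higher and 1 lower, with 4.27% of all miRNAs higher and 8.83% lower. At 24 h, 1 was higher and 0 lower, with 5.7% and 3.7% of all miRNAs. Between 24 h and 12 h, 0 members were higher and 0 lower, with 4.27% and 0.855% of all miRNAs. The median log2 ratio of the members was -0.10, -0.02 and 0.10 in these comparisons, against -0.08, -0.01 and 0.07 over all miRNAs, and 4 of the 6 scalings gave the members a positive median in the first and 5 of 6 in the second. Over all 56 members, the counts were 0 higher and 1 lower at 12 h (2.92% and 3.84% of the 1198 entries), 1 and 0 at 24 h (3.26% and 3.17%), and 0 and 1 between 24 h and 12 h (1.92% in either direction). The comparisons with untreated cells share the untreated Wt1 KO library, and no Wt1 KO cells with dox but without the inducible gene are among the libraries.

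The lower member at 12 h was miR-134-5p, with 4193 reads in untreated Wt1 KO, 1572 in dox 12 h and 6265 in dox 24 h. Its log2 ratio was -1.10 (95% interval -1.18 to -1.01) at 12 h and -0.69 (95% interval -0.75 to -0.63) at 24 h, and the 12 h value passed the rule under the main scaling and the median of ratios but not under the other 4. The higher member at 24 h was miR-376b-5p, with 19, 30 and 107 reads in the same libraries. Its log2 ratio was 1.21 (95% interval 0.51 to 2.01), past the rule under all 6 scalings. With a mean count of 52.7, miR-376b-5p would fall under the minimum without its reads in dox 24 h, the library in which it was called higher. Passing under all scalings does not remove this limit. miR-379-5p had 211, 135 and 262 normalised CPM, with a log2 ratio of -0.64 (95% interval -0.93 to -0.36) at 12 h and of 0.96 (95% interval 0.71 to 1.21) at 24 h against 12 h. Its 3p arm had 141, 195 and 178.

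The small ratios after dox ran with the base composition of the members. Across the 37 members, the log2 ratio and the GC content of the mature miRNA had a Pearson r of -0.51 at 12 h and -0.53 at 24 h. Across the 314 miRNAs outside the cluster the values were -0.06 and -0.22. These include the other miRNAs of the locus. Of those under 50% GC at 12 h, miR-369-5p, miR-136-3p, miR-412-5p, miR-369-3p, miR-136-5p, miR-434-3p and miR-410-3p had positive log2 ratios, from 1.01 to 0.16. miR-541-5p, miR-433-5p and miR-409-5p had negative ones, the last -4.12. Of those at 50% or more, miR-433-3p, miR-127-5p, miR-337-5p, miR-431-3p, miR-127-3p, miR-673-5p, miR-431-5p and miR-409-3p had negative ratios, from -1.26 to -0.36. Those of miR-370-3p, miR-540-3p, miR-493-3p and miR-412-3p were negative but smaller. miR-673-3p, miR-434-5p, miR-665-3p and miR-341-3p had positive ones, from 0.59 to 0.12. Whether the trend is particular to the cluster was not tested. The 19 members under 50% GC had a median log2 ratio of 0.30 at 12 h and 0.26 at 24 h, and the 18 others -0.32 and -0.13. With RA in Wt1 KO the members' r was -0.40, and it was 0.22 for untreated Wt1 KO against WT and -0.08 for RA in WT. It was -0.29 between the genotypes with RA and 0.09 for 24 h against 12 h of dox. Those last 2 and RA in WT do not use the untreated Wt1 KO library, and the other comparisons do. Arms of 1 hairpin share a precursor, so the coefficients are a description without a test. The order of the hairpins along the chromosome had r between -0.15 and 0.02 with the ratios of the 7 comparisons.

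**Figure D4:**
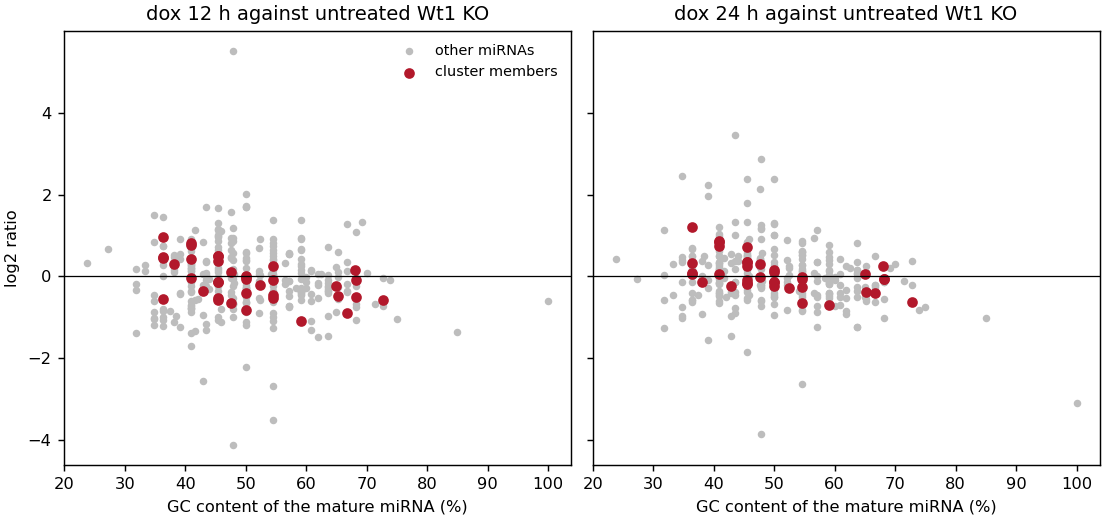
GC content of the mature miRNA (%, x axis) against the log2 ratio to untreated Wt1 KO (y axis) after 12 h (left) and 24 h (right) of dox, for 37 cluster members (large points) and 314 other miRNAs (small points). The members slope down from left to right in both panels, with r of -0.51 and -0.53.

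The share of a hairpin's reads from its 5p arm does not depend on the scaling between libraries, because both arms were counted in the same library. Of the 27 hairpins with at least 20 reads in a library, 15 gave mostly the 3p arm in every such library, 9 mostly the 5p arm, and 3 (miR-299a, miR-329 and miR-379) differed between libraries. The 5p arm held between 97.4% and 98.5% of the reads of the miR-411 hairpin in all 6 libraries, and at least 98.4% of those of miR-134. In miR-667 and miR-323 it held at most 2.16% and 5.18%.

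In miR-329 the leading arm was 5p without RA and 3p with RA in both genotypes. Its arms together had 300 and 2142 reads in WT without and with RA, 460 and 21 in Wt1 KO without and with RA, and 283 and 1270 after 12 h and 24 h of dox. The 5p share was 68.7% and 30.8% in WT without and with RA, 67% and 33.3% in Wt1 KO without and with RA, and 58.3% and 70.2% after 12 h and 24 h of dox. The 4 libraries without RA all lay above 50% and both with RA below. The log2 odds ratio of 5p over 3p for RA against untreated was -2.29 (95% interval -2.67 to -1.92) in WT and -1.97 (95% interval -3.27 to -0.67) in Wt1 KO, where the share's Wilson interval, 17.2% to 54.6%, includes 50%. In WT the 5p arm, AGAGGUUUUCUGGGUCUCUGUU, was lower after scaling and the 3p arm, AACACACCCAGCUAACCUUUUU, higher, with log2 ratios of -0.94 and 1.36.

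In miR-379 the 5p share was 41.1% and 63.7% in WT without and with RA, 60% and 50% in Wt1 KO without and with RA, and 40.9% and 59.6% after 12 h and 24 h of dox. The untreated WT and dox 12 h libraries lay below 50%, and untreated Wt1 KO, dox 24 h and WT with RA above. The log2 odds ratio of untreated Wt1 KO against WT was 1.10 (95% interval 0.66 to 1.53). Against untreated Wt1 KO it was -1.11 (95% interval -1.50 to -0.72) in dox 12 h and -0.02 (95% interval -0.32 to 0.28) in dox 24 h. In miR-485 the 5p share was 25.1% and 33.9% in WT without and with RA, 13.9% and 21.3% in Wt1 KO without and with RA, and 17.9% and 17.3% after 12 h and 24 h of dox, highest in WT with RA and lowest in untreated Wt1 KO. In miR-666 it was 78.9% and 69.2% in WT without and with RA, 80.6% and 63.3% in Wt1 KO without and with RA, and 75.8% and 80.5% after 12 h and 24 h of dox, lower in both RA libraries. In miR-299a the share was below 50% only in Wt1 KO with RA, at 47.6% on 21 reads.

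**Figure D5:**
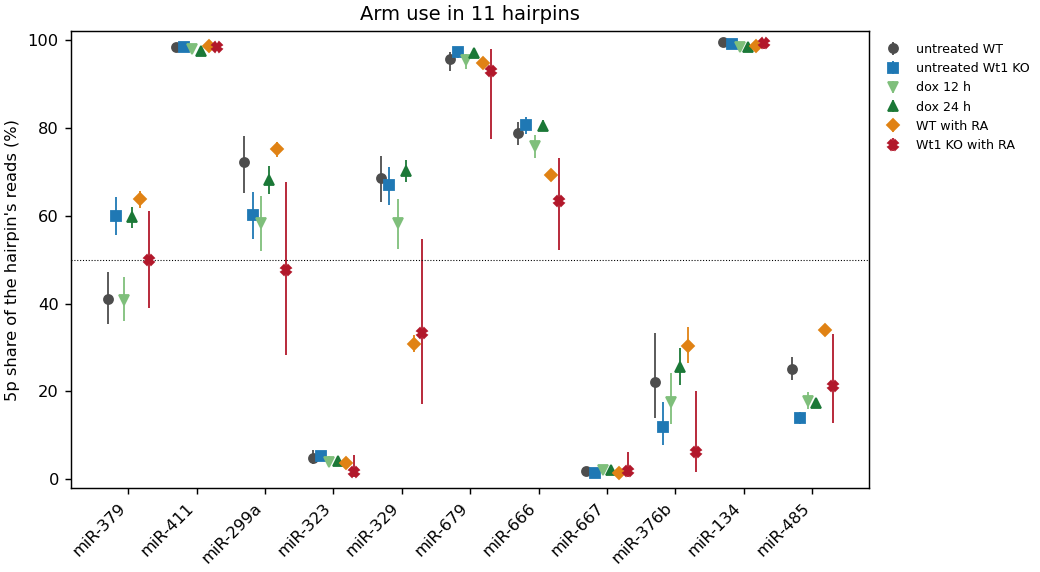
Share of a hairpin's reads from its 5p arm (%, y axis) in each library, for the 11 hairpins whose arms both have a mean count of at least 50 (x axis, in chromosome order), with 95% Wilson intervals and a dotted line at 50%. For miR-329 the 4 libraries without RA lie between 58.3% and 70.2%, and both RA libraries at 30.8% and 33.3%.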

How the data were processed

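Small RNA libraries of 6 groups of mouse embryonic stem cells, 1 each, were read as tables of mature miRNA entries. Per the file headers, the deposited values are counts of reads, split into unique matches (1 entry) and multi-matches (several entries), and the unique-match counts were used as deposited. Per the labels' protocols, RNA was ligated to adapters, amplified and cut from a gel at the miRNA band and at a band of longer small RNAs. Which aligner, mismatch limit and genome build were used is not given in the sources used here. Coordinates come from GENCODE on GRCm38 and sequences from RefSeq on GRCm38.p6, matched by name.

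Each table holds 1899 entries, and 351 had a mean count of at least 50. Counts were scaled by TMM (edgeR 4.0.16, R 4.3.3) over these 351 with full library totals. Log2 ratios used a prior count of 0.5 per library, with exact conditional binomial (Clopper-Pearson) 95% intervals from scipy 1.17.1. Shares have Wilson intervals, arm odds ratios and the difference of RA responses delta-method intervals. No test or p-value was computed with 1 library per group. A count of 0 was read against 3 counts. The scripts were tested on simulated data. Alternatives were 5 other scalings (one from DESeq2 1.42.0), other minimums, priors and size thresholds, and added multi-matches.

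Members given with values are the 12 most abundant, up to 5 per direction past the size rule and comparison, hairpins with both arms at the minimum, members that share a seed and those at the 1-read limit. Others were named after their values were seen. Members, lists and rules were chosen with earlier results of these data known.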

Additional observations from a re-analysis of the deposited data

Results flagged for a closer look

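Reads that matched several entries were left out of all comparisons. Among members, such reads were listed for both arms of miR-299a, and miR-299a-5p had 9 in untreated WT, 24 in untreated Wt1 KO, 27 in dox 12 h, 46 in dox 24 h and 82 in WT with RA, which is above the 3 counts that a count of 0 allows. In Wt1 KO with RA there were 2, within that limit. miR-299a-3p had 2 in untreated Wt1 KO and 1 in WT with RA. Together these reads were at most 0.0686% of the unique and multiple matches of the cluster in any library.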

How the results depend on the processing

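Counts of members past the size rule are given as higher and lower. Scaled by the library total, they were 1 and 1 for untreated Wt1 KO against WT, 13 and 3 for RA in Wt1 KO, 4 and 4 for the genotypes with RA (Wt1 KO over WT), 2 and 0 for 12 h of dox, 3 higher for dox 24 h, and 4 and 7 for the difference of RA responses. Without the miRNAs of the Dlk1-Dio3 locus in the total, they were 1 and 1, 17 and 1, 8 and 2, 1 and 0, 3 higher, and 6 and 4 in the same order, with 1 higher for dox 24 h against 12 h, and miR-666-5p turned to 0.038 for RA in Wt1 KO. With the miR-290 and miR-302 clusters taken out of the total, they were 1 and 1, 11 and 4, 6 and 3, 3 and 0, 5 higher, and 5 and 4, with 1 lower for RA in WT. With TMM over every entry with a read, an alternative chosen after seeing the data, they were 4 higher for untreated Wt1 KO against WT, 2 higher for RA in Wt1 KO, 1 and 11 for the genotypes with RA, 1 and 0 for 12 h of dox, and 1 higher for the difference. The median of ratios gave 4 higher for untreated Wt1 KO against WT, 1 lower for RA in WT and 1 higher for 12 h of dox.

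With a minimum mean count of 10, or none, there was 1 lower for RA in WT and 1 lower for dox 24 h against 12 h. With a minimum of 200 there were 3 higher for untreated Wt1 KO against WT, 1 higher for the genotypes with RA, 0 higher for dox 24 h and 1 higher for the difference, and with a minimum of 25 normalised CPM 0 higher for dox 24 h. With a size threshold of 1.5-fold the counts were 14 and 1 for untreated Wt1 KO against WT, 3 lower for RA in WT, 9 higher for RA in Wt1 KO, 8 higher for the genotypes with RA, 3 and 4 for 12 h of dox, 5 and 3 for dox 24 h, and 3 and 1 for dox 24 h against 12 h. Without members of under 20 reads in Wt1 KO with RA, also chosen after seeing the data, 3, 3 and 5 were lower for RA in Wt1 KO, the genotypes with RA, and the difference. This cut is on a count within those ratios and takes out lower members more readily. Apart from fewer members tested, the cause was not tested. The other 130 recomputed counts, and all recomputed cluster, member and arm shares, stayed within 1.5 times or within their intervals. Of the recomputed log2 ratios of members, 2358 lay within the counting interval of the value reported, 396 lay outside it and 1 that had passed the size rule turned its sign.

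No paired analysis was possible because each group has 1 library and no replicate numbers. No library could be left out for the same reason. The depth of Wt1 KO with RA limits every value that uses it, and 10 of the 56 members had no read there. Only scaling-free values, the arm shares and shares within the cluster, do not rest on the choice among scalings.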
